A study of Mus musculus with 12 samples.

Results

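The genes described here encode the proteins of the cytosolic ribosome. They were taken from the RefSeq gene table (GRCm38.p6) as the protein-coding genes whose symbols begin with Rpl or Rps and continue with a number, plus Rplp0, Rplp1, Rplp2 and Rpsa. Kinases of the Rps6k type and Rps19bp1 were left out. The rule found 90 genes among 21900 protein-coding genes. Each gene was represented by 1 region of open chromatin, namely the consensus peak with the highest mean count among those centred within 1 kb of either end of the gene. Such a peak existed for 80 of the 90 genes, against 12172 of all protein-coding genes, and all 80 peaks passed the filter on low counts. Of the 80, 31 encode small-subunit and 49 large-subunit proteins.

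Ribosomal proteins assemble with ribosomal RNA into the small subunit, which reads the mRNA, and the large subunit, which joins amino acids. Their genes are among the most actively transcribed in proliferating cells. Their promoters are typically compact, often carry sites for ETS factors, SP1 or YY1, and commonly start transcription inside a pyrimidine run called the 5′ terminal oligopyrimidine (TOP) tract, through which translation of these mRNAs is controlled. Bone marrow makes red cells at a high rate, and inherited loss of 1 copy of any of several of these genes causes Diamond-Blackfan anemia, a failure of red cell production.

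Chromatin accessibility was measured by ATAC-seq, in which the Tn5 transposase cuts and tags DNA not covered by nucleosomes, in bone marrow of NZO/HILtJ mice. This inbred line becomes obese and, in many males, diabetic. Every library came from a mouse of this strain, with no transgene, deletion or treatment named. The 4 groups of 3 mice each were females at 18 months (mice 35, 36 and 42), males at 18 months (38, 39 and 40), females at 3 months (named here by their sequencing runs 28, 29 and 31) and males at 3 months (runs 29, 30 and 31). The age contrast asks how accessibility differs between old and young marrow of this strain.

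Total counts in peaks ranged from 9021393 to 10984411 at 3 months and from 7668099 to 12756647 at 18 months. The 18-month females were sequenced in run 14, the 18-month males in run 15 and the 3-month mice in runs 28 to 31. No run held both ages, so no within-run age effect could be computed and age cannot be told apart from run. At 18 months, sex cannot be told apart from run either. The labels name bone marrow, whereas the submitted protocol describes a sort of CD3e and CD8 positive T cells. Of 8 T cell markers, Cd3e, Cd8a, Cd8b1, Cd4 and Bcl11b had no peak by the rule, and the other 3 summed to 32.3 to 58.7 CPM (counts scaled to the library total) per library. Of 15 erythroid markers, 9 had a peak, with sums of 280 to 346 CPM at 3 months and 143 to 183 CPM at 18 months, and all 9 were lower at 18 months. Granulocyte and monocyte markers (15 of 16 with a peak) summed to 234 to 369 CPM at 3 months and 320 to 393 CPM at 18 months, and 7 were higher at 18 months. The 3-month maximum of that list, 369 CPM, belonged to the male of run 30, which stood apart from the other 3-month libraries. In a bulk library, fewer cells of a type and less open chromatin per cell cannot be told apart, and the part of cell composition in the results on ribosomal protein genes was not tested.

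The promoters of the genes on which the age results turn are shown as 150 bases each, 120 before the annotated start and 30 from it, from RefSeq (GRCm38.p6). Capitals mark the motif letters searched and, from the start base, the TOP tract. The first 6 belong to members whose peak was lower at 18 months. Rps19 had the smallest p for a difference in age effect between the sexes, and Rps6 and Rps18 are shown as members with a TOP tract and no called change under TMM scaling.
Rpl39: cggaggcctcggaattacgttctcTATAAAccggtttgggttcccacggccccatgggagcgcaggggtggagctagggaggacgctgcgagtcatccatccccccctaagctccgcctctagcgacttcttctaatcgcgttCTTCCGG
Rpl14: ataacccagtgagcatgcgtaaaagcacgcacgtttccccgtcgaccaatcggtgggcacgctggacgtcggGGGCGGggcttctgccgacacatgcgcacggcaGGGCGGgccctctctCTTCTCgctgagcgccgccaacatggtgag
Rpl36al: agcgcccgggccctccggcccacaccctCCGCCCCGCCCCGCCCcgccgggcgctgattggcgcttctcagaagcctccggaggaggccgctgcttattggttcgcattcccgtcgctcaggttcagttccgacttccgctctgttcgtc
Rpl5: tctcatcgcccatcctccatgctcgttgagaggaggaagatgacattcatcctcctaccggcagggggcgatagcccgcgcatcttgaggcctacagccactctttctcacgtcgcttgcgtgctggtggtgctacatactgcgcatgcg
Rplp2: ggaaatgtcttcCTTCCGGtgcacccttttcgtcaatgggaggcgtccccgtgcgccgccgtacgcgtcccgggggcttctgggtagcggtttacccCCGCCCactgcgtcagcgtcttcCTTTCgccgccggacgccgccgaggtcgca
Rps26: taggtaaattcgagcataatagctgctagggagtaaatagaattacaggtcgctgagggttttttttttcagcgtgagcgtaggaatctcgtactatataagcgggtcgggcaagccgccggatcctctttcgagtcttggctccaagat
Rps19: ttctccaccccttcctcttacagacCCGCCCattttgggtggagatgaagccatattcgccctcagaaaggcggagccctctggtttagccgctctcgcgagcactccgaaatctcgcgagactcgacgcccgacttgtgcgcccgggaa
Rps6: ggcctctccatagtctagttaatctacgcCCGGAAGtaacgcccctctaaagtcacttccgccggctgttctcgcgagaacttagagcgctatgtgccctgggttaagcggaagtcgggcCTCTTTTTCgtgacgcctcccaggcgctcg
Rps18: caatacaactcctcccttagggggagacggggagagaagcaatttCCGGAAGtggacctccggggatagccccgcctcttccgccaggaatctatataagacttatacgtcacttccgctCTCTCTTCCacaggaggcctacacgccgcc
These windows lie at Rpl39 (chrX:37085193-37085342, minus strand), Rpl14 (chr9:120571397-120571546, plus strand), Rpl36al (chr12:69184038-69184187, minus strand), Rpl5 (chr5:107900408-107900557, plus strand), Rplp2 (chr7:141447531-141447680, plus strand), Rps26 (chr10:128626477-128626626, minus strand), Rps19 (chr7:24884472-24884621, plus strand), Rps6 (chr4:86857338-86857487, minus strand) and Rps18 (chr17:33955636-33955785, minus strand). Rpl39 held TATAAA 96 bases before its start and the ETS letters on the opposite strand at position 24, counting the start base as 1. Rpl14 held GGGCGG at -48 and -15 and a TOP tract of 6 bases. Rpl36al held GGGCGG on the opposite strand at -92, -87 and -82. Rplp2 held the ETS letters at -108 and GGGCGG at -23, both on the opposite strand, and a TOP tract of 5 bases. Rpl5, Rps26 and Rps19 carried no TOP tract at the annotated start, and Rps6 and Rps18 carried tracts of 9 bases and the ETS letters at -91 and -75.

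Across the 61 members with an entry in the promoter table, the 300-base window of the first entry of each gene was searched on both strands, and matches to different motifs were allowed to overlap. The ETS letters CCGGAAG were found in 37.7% of members and in 9.12% of all 27025 promoters of the same length. A TOP start, meaning C at the start base followed by at least 4 pyrimidines and searched on the gene's strand only, was found in 19.7% of members and 2.49% of all promoters. GGGCGG, bound by SP factors, was found in 60.7% against 35.9%, and the YY1 letters AAGATGGC in 8.20% against 2.88%. CACGTG, the E-box bound by Myc, was found in 8.20% against 7.24%, and TATAAA in 9.84% against 14.2%. The letters AGATAA of the GATA motif were found in 6.56% against 11.4%. Of the 6 members printed for a lower peak, 3 held the ETS letters, 3 held GGGCGG and 2 had a TOP start. A match is a description of the letters only.

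Most members had a strong peak over the annotated start. Mean levels over the 12 libraries ran from 7.82 to 180 CPM with a median of 46.7 CPM, and 75 of the 80 peaks lay in the most accessible quartile of the 75164 peaks tested. Peak width ran from 779 to 10319 bp, so levels are compared between genes per kb of peak. On that scale Rpl27 (37.2 CPM per kb) was highest, Rpl15 (31.0) was also among the high members, and Rpl17 (7.86), Rpl38 (9.65), Rpl22 (11.0) and Rpl6 (11.7) were lowest, around a median of 19.2 CPM per kb. Of the 61 members with a known start, 56 had it inside the peak. For Rpl38, Rpl22, Rpl19, Rpl18 and Rpl3l the peak chosen by the rule did not hold it. The peak over an annotated start of Rpl38 averaged 46.8 CPM and that of Rpl22 43.9 CPM, against 7.82 and 8.80 CPM for the peaks chosen. In 22 cases the peak also held the end of another protein-coding gene. The widest, over Rpl41, held the end of Zc3h10, and the peak of Rps2 held an end of Ndufb10. Reads in such a peak cannot be assigned to 1 of its genes.

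At 18 months 8 of the 80 member peaks were less accessible than at 3 months and 0 were more accessible (edgeR quasi-likelihood test, sex as covariate, Benjamini-Hochberg adjusted p under 0.05 over all tested peaks). The genes were Rpl39, Rpl14, Rpl36al, Rpl21, Rpl5, Rpl23a, Rplp2 and Rps26, 7 of the large and 1 of the small subunit. Over all tested peaks 11.6% were lower and 9.43% were higher, and over the peaks of all protein-coding genes chosen by the same rule 25.9% were lower and 3.76% higher. The share of members called lower, 10.0%, was thus near that of all peaks and below that of gene peaks; no test of that difference was made. At an unadjusted p under 0.05, 17 members were lower and 0 higher, against 16.7% lower and 16.7% higher over all peaks and 36.2% and 7.02% over gene peaks. The members at that threshold numbered 10 without male 38 and 11 without male 39. DESeq2 called 9 lower and 0 higher, where it called 11.9% of all peaks lower and 8.53% higher. The median log2 fold change of the members was -0.10, against -0.14 for gene peaks and 0.02 for all peaks, and 65 of the 80 values lay below 0 (81.3%, against 71.1% of gene peaks), but with offsets smoothed on peak abundance the members' median turned to 0.07. Leaving out 1 library moved the count of lower members, and 0 were higher each time. The count was 5 without female 35, 13 without female 36, 4 without male 39 and 4 without male 40. It was 4 without the 3-month female of run 28 and 5 without the 3-month male of run 29. In these fits, in the same order, 24.0%, 29.4%, 20.7%, 21.8%, 21.4% and 21.2% of gene peaks were lower. Over all tested peaks the shares were 10.3%, 11.3%, 10.2%, 9.90%, 9.60% and 9.72%.

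**Figure D1:**
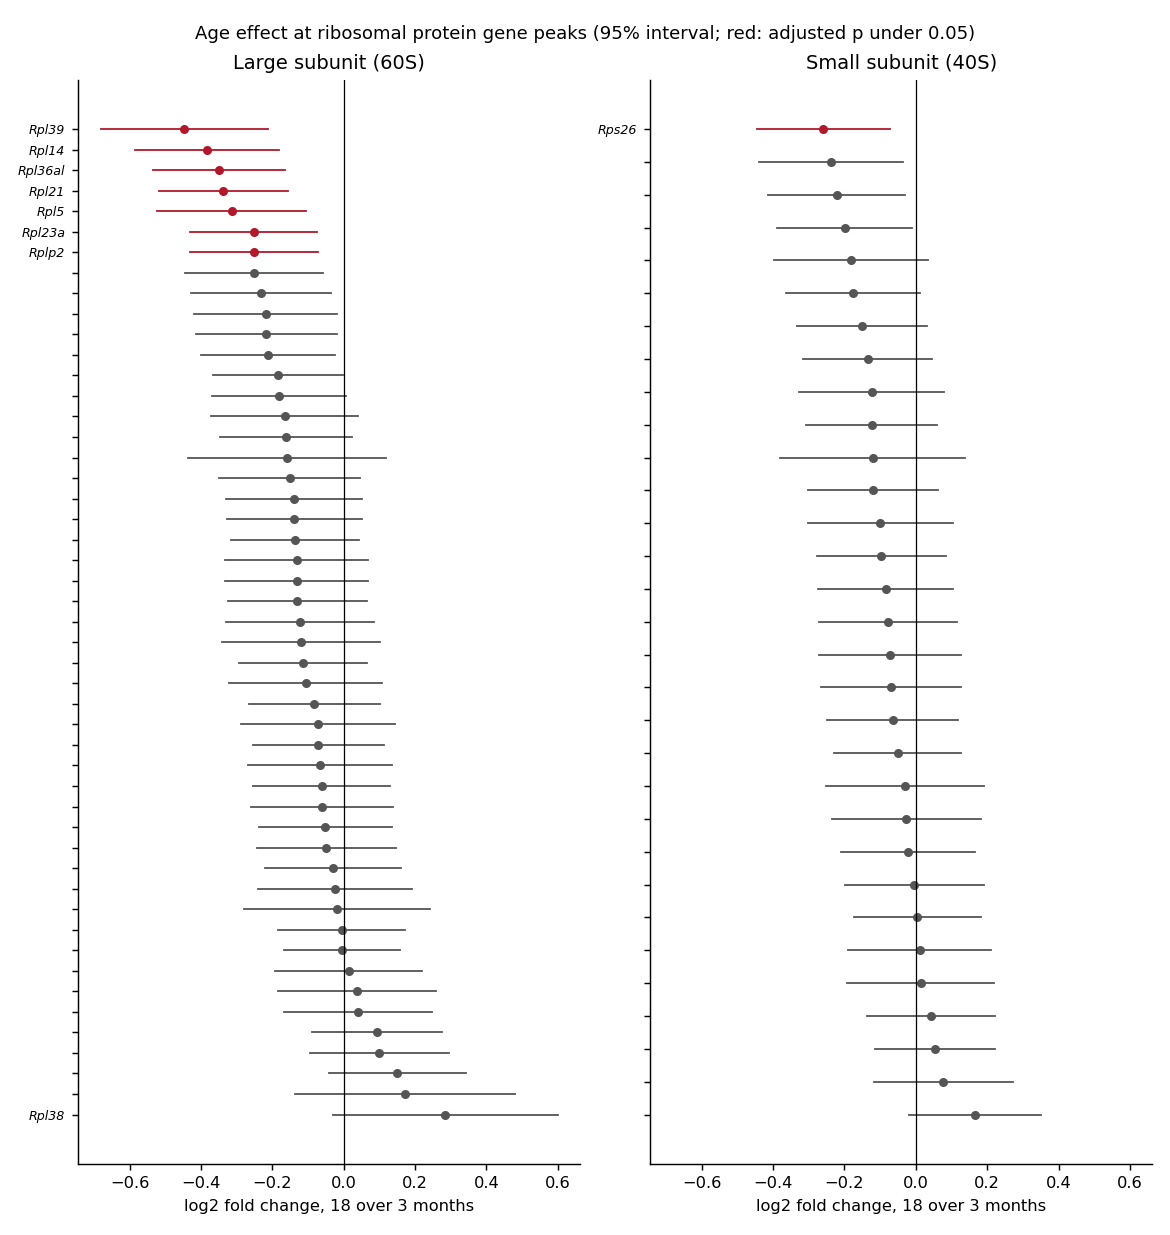
Log2 fold change of accessibility (18 over 3 months, x axis) for the peak of each of 49 large-subunit (left) and 31 small-subunit (right) genes, with 95% intervals as lines and peaks at an adjusted p under 0.05 in red and named, as is the highest point. The points run from -0.45 (Rpl39) to 0.28 (Rpl38) with a median of -0.10, which turned to 0.07 with offsets smoothed on abundance.

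Rpl39, a small protein lining the exit tunnel of the large subunit, showed the largest decrease among the members. Its CPM was 14.5 at the lowest, 16.2 at the median and 24.3 at the highest over the 6 libraries at 18 months, and 21.4, 24.9 and 28.4 at 3 months. The 2 highest libraries at 18 months, females 35 and 36, overlapped the 3-month range, and the other 4 lay below it. Accessibility fell by 0.45 on the log2 scale (SE 0.12, edgeR adjusted p = 0.00420), to 0.733 of the 3-month level. At Rpl14, another large-subunit gene, CPM was 26.9, 30.2 and 41.3 (lowest, median, highest) at 18 months and 35.2, 43.2 and 45.0 at 3 months. Again females 35 and 36 were the libraries that reached the 3-month range. Rpl14 accessibility fell by 0.38 (SE 0.10, edgeR adjusted p = 0.00438). These 2 genes were called lower under all 18 alternative scalings, filters, tools and left-out libraries.

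Rpl36al is an autosomal relative of the X-linked Rpl36a, and its peak also holds the end of Mgat2. It measured 51.2, 54.7 and 71.1 CPM (lowest, median, highest) at 18 months and 63.0, 73.1 and 84.0 CPM at 3 months, a fall of 0.35 on the log2 scale (SE 0.09, edgeR adjusted p = 0.00476). The highest libraries at 18 months again overlapped the 3-month range. At Rpl21, the CPM at 18 months (45.6, 50.4 and 59.0) did not overlap that at 3 months (59.8, 65.4 and 69.7). Rpl21 accessibility fell by 0.34 (SE 0.09, edgeR adjusted p = 0.00510). Both calls were lost with offsets smoothed on abundance, at edgeR adjusted p = 0.144 for Rpl36al and 0.158 for Rpl21, and with offsets smoothed on peak width, and were kept in the other 16 alternatives.

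The remaining 4 calls were smaller and closer to the threshold. Rpl5, which binds the 5S ribosomal RNA together with Rpl11, measured 25.6, 32.9 and 43.0 CPM (lowest, median, highest) at 18 months and 34.1, 39.7 and 48.6 CPM at 3 months, and its log2 fold change was -0.31 (SE 0.10, edgeR adjusted p = 0.0242). Its groups overlapped through the females. Rpl23a, which sits at the mouth of the exit tunnel, measured 47.8, 50.4 and 56.3 CPM against 56.4, 60.8 and 65.5 CPM, with no overlap between the ages. Its log2 fold change was -0.25 (SE 0.09, edgeR adjusted p = 0.0346). Rplp2, a protein of the stalk that recruits elongation factors, measured 54.0, 70.5 and 73.3 CPM against 75.0, 80.8 and 84.4 CPM, again without overlap, at -0.25 (SE 0.09, edgeR adjusted p = 0.0366). The peak of Rplp2 also holds the end of Pidd1. Rps26, which lies on the small subunit where mRNA leaves, measured 49.5, 56.2 and 72.5 CPM against 57.2, 69.6 and 75.6 CPM, with overlap, at -0.26 (SE 0.09, edgeR adjusted p = 0.0381). Of 18 alternatives, 11 kept the call of Rpl5, 9 that of Rplp2, 8 that of Rpl23a and 7 that of Rps26; the log2 fold change of each stayed below 0 in all 18, with values nearest to 0 of -0.15, -0.02, -0.02 and -0.04. Rpl21, Rpl23a and Rplp2 were the 3 members (3.75%) whose CPM did not overlap between the ages with 18 months lower, and 0 did so with 18 months higher; over all tested peaks these shares were 5.04% and 2.20%, and over gene peaks 8.79% and 0.874%.

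**Figure D2:**
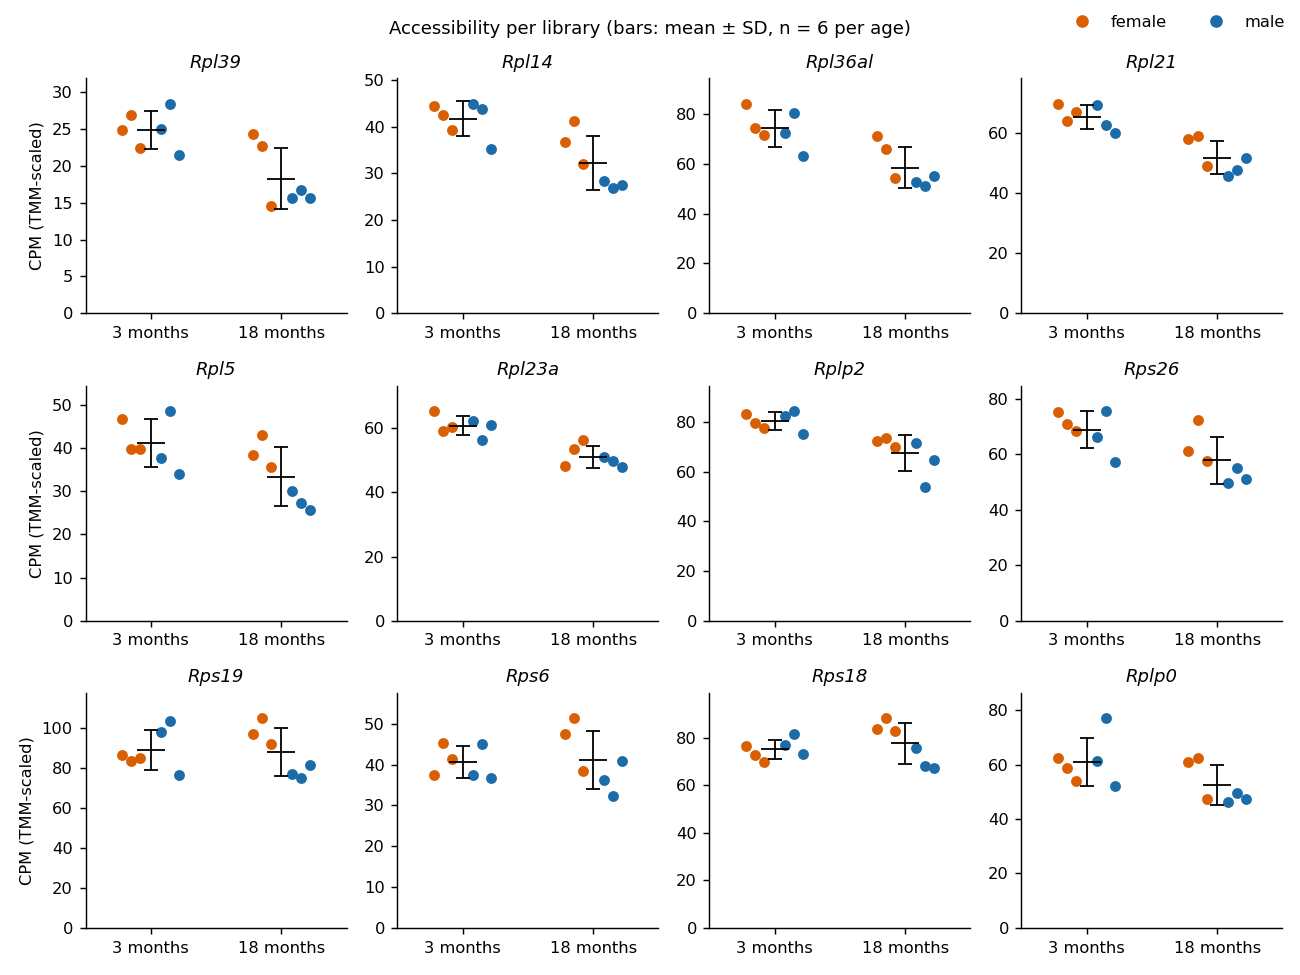
TMM-scaled CPM (y axis, from 0) of 12 member peaks in each of 6 libraries per age, females in orange and males in blue, with black bars for mean ± SD. The first 8 panels are the peaks called lower, of which Rpl21, Rpl23a and Rplp2 show no overlap between the ages, and the last 4 (Rps19, Rps6, Rps18 and Rplp0) were not called with TMM factors.

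For the 72 members not called, intervals were computed with TMM factors only. The 95% intervals of 71 of them, which are not adjusted for the number of peaks, lay within 0.5 of 0 on the log2 scale; the exception, Rpl38, reached 0.60. Standard errors over the members ran from 0.08 to 0.16. Just outside the threshold stood Rpl32, at -0.25 (SE 0.10, edgeR adjusted p = 0.0537). The highest values were those of Rpl38 (0.28, SE 0.16, edgeR adjusted p = 0.199), Rpl17 and Rps28 (0.17, SE 0.09, edgeR adjusted p = 0.204). Rpl38 stood at 0.15 without the 3-month female of run 28 and at 0.37 without that of run 31. Rpl17 stood at 0.06 without male 38 and at 0.31 without the 3-month female of run 31. Rps28 measured 43.3 ± 2.02 CPM (SD, n = 6) in the older and 38.7 ± 2.53 CPM (SD, n = 6) in the younger mice, with overlap between the ages. It stood at 0.36 with offsets smoothed on peak width. Rpl41 had the highest CPM of the members, 180 ± 13.5 (SD, n = 6) in older and 181 ± 3.34 (SD, n = 6) in younger mice, and its interval ran from -0.17 to 0.16. It stood at 0.26 and was called higher with offsets smoothed on abundance or on width. Across the 80 members the log2 fold change showed little relation to log2 CPM (Spearman rho = -0.05) or to peak width (rho = -0.07), given as a description, since all members share the same 12 libraries and the same scaling.

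Of the 3 stalk genes and Rpsa, 1 passed the threshold, Rplp2. Rplp0, the base of the stalk, measured 46.3, 48.6 and 62.6 CPM (lowest, median, highest) at 18 months and 52.2, 59.9 and 77.1 CPM at 3 months, at -0.22 (SE 0.10, edgeR adjusted p = 0.113). Rplp1, the partner of Rplp2, stood at -0.06 (SE 0.10, edgeR adjusted p = 0.693). Rpsa, a small-subunit protein also known as the laminin receptor, stood at -0.15 (SE 0.09, edgeR adjusted p = 0.242). In all 3 the CPM of the ages overlapped.

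Of the 19 members on the list of genes mutated in Diamond-Blackfan anemia, 2 were lower (Rpl5 and Rps26), 0 were higher, and the median log2 fold change was -0.10, as over all 80 members. Over all tested peaks 11.6% were lower and over gene peaks 25.9%. Both calls were lost with offsets smoothed on abundance (edgeR adjusted p = 0.192 for Rpl5 and 0.677 for Rps26). There 3 of the 19 genes were higher, Rps28, Rpl18 and Rps19. Under that scaling 9.64% of all peaks were higher and 10.3% lower, and 8.41% of gene peaks were higher and 15.1% lower. Rps19, the gene most often mutated in that disease, measured 75.2, 86.8 and 105 CPM (lowest, median, highest) at 18 months and 76.7, 85.9 and 103 CPM at 3 months. The ages overlapped over nearly their whole range, and its log2 fold change was -0.02 (SE 0.09, edgeR adjusted p = 0.902). With offsets smoothed on abundance the value of Rps19 was 0.22 (edgeR adjusted p = 0.00853). Rpl11, the partner of Rpl5 on the 5S ribosomal RNA and a binder of Mdm2, stood at -0.07 (SE 0.09, edgeR adjusted p = 0.628). Rps14, whose loss underlies the anemia of the human 5q deletion syndrome, stood at 0.08 (SE 0.10, 95% interval -0.12 to 0.27) and was not called with TMM factors, but stood at 0.26 and was called higher with offsets smoothed on abundance. On this list the log2 fold changes ran from -0.31 (Rpl5) to 0.17 (Rps28).

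The direction of the members as a set depended on how the libraries were scaled. With total counts in place of TMM factors, 4 members were lower (Rpl39, Rpl14, Rpl36al and Rpl21) and 2 higher (Rps28 and Rpl12), and the median was -0.03; over all peaks 8.82% were then lower and 14.9% higher. With offsets smoothed on peak width, 2 were lower (Rpl39 and Rpl14) and 9 higher, with a median of 0.06, against 9.45% lower and 8.55% higher over all peaks. With offsets smoothed on abundance, 2 were lower (the same 2 genes) and 11 higher, with a median of 0.07, against 10.3% lower and 9.64% higher over all peaks. Among the 11 were Rps28, Rpl12, Rpl3l, Rpl10, Rpl41, Rps14, Rps18 and Rps19. Rps28 went from 0.17 with TMM factors to 0.34 with abundance offsets (edgeR adjusted p = 0.00118), and Rpl12 from 0.15 to 0.31 (edgeR adjusted p = 0.00348). Of gene peaks, 20.2% were lower and 7.23% higher with total counts, and 14.5% and 6.74% with offsets smoothed on width. With offsets smoothed on abundance these shares were 15.1% and 8.41%. The gene-peak medians in that order were -0.06, -0.05 and -0.04, below 0 each time. Under TMM factors, log2 fold change over all tested peaks fell with log2 CPM (Spearman rho = -0.22, across peaks, which are not independent). Among gene peaks in the most accessible quartile, where 75 members lie, 34.1% were lower and the median was -0.19.

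**Figure D3:**
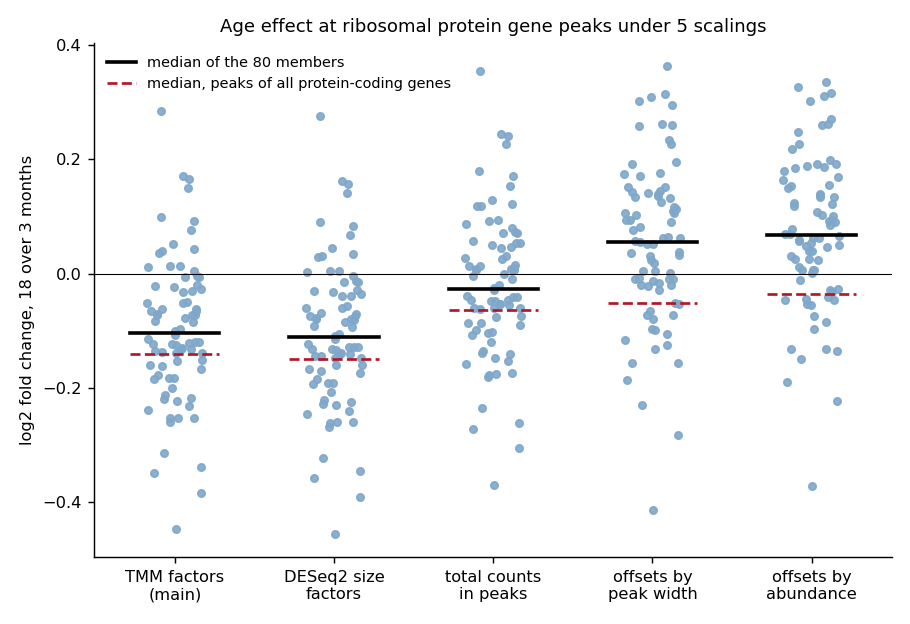
Log2 fold change (18 over 3 months, y axis) of the 80 member peaks (points) under 5 scalings (x axis), with the members' median in black and the median of the peaks of all protein-coding genes as a dashed red line. The members' median lies below 0 with TMM factors, DESeq2 size factors and total counts and above 0 with offsets by width and abundance, and it lies above the gene-peak median in all 5.

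In males 11 members were lower at 18 months and 0 higher: Rpl39, Rpl14, Rpl36al, Rpl21, Rpl5, Rplp2, Rps3, Rplp0, Rps3a1, Rps24 and Rpl8. Over all tested peaks the male shares were 8.18% lower and 3.21% higher, and over gene peaks 24.4% lower and 1.06% higher. In females 0 members were lower and 0 higher by edgeR at an adjusted p under 0.05, where all tested peaks gave 6.20% lower and 5.70% higher and gene peaks 9.21% and 3.50%. At an unadjusted p under 0.05, 3 members were lower and 2 higher in females, against 28 lower and 0 higher in males. The same threshold gave 12.5% lower and 13.6% higher over all peaks in females (gene peaks 18.0% and 8.47%) and 14.5% lower and 10.4% higher in males (gene peaks 40.3% and 3.55%). In either direction, the 5 members in females became 2 or 3 without the 3-month female of run 28 or run 29, 8 without the 3-month male of run 30 or run 31, 9 with total counts and 19 or 20 with offsets smoothed on width or abundance. The 28 in males became 17 without male 39, 48 without the 3-month male of run 31, and 12 or 14 with offsets smoothed on width or abundance. DESeq2 called 0 members in females, where it called 5.96% of all peaks lower and 4.46% higher, and 16 lower and 0 higher in males, where it called 8.47% of all peaks lower and 2.40% higher. The members' median was 0.02 in females, with 35 of 80 values below 0, and -0.23 in males, with 73 of 80 below 0. Over gene peaks the median was -0.06 in females, with 59.6% below 0, and -0.23 in males, with 76.2% below 0. The female median of the members turned to -0.027 without female 36 and to -0.0075 without the 3-month female of run 31. It rose to 0.075 without female 42 and to 0.035 without the 3-month female of run 28. With offsets smoothed on abundance both medians were above 0 (0.10 in females and 0.06 in males), and 7 members were higher and 0 lower in females and 5 higher and 2 lower in males. The shares over all peaks were then 6.35% higher and 6.69% lower in females and 3.24% higher and 4.67% lower in males. The count of 11 in males fell to 6 without male 38 and 4 without male 39. It was 3 without the 3-month male of run 29, 4 without that of run 30 and 28 without that of run 31. Male shares over all peaks in these fits are not given here, so these moves cannot be read as particular to the members.

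The difference between the sexes was tested as an interaction of age and sex. By edgeR 0 of the 80 members passed an adjusted p of 0.05, as did 0.00532% of all tested peaks, and DESeq2 also called 0. At an unadjusted p under 0.05 there were 16 of the 80 members, against 10.0% of all tested peaks and 15.2% of gene peaks. That count was 4 to 10 without any 1 of females 35 and 36, males 38 and 39, the 3-month females of runs 29 and 31 and the 3-month males of runs 29 and 30. It was 26 without female 42, 32 without the 3-month male of run 31, 7 with offsets smoothed on width and 2 with offsets smoothed on abundance. The interaction was below 0, meaning a lower log2 fold change in males, at 70 of the 80 members with a median of -0.25, against 73.8% of gene peaks with a median of -0.17 and 51.0% of all peaks. It was below 0 at 51 of the 80 with offsets smoothed on abundance. The smallest p belonged to Rps19, with 98.1 ± 6.43 CPM in females and 77.9 ± 3.20 CPM in males of the older group, and 85.1 ± 1.65 CPM in females and 92.7 ± 14.1 CPM in males of the younger (SD, n = 3 each). All 3 females at 18 months lay above all 3 males of that age, whereas the 3-month sexes overlapped. These females were all in run 14 and these males in run 15, so sex and run cannot be told apart there or in the interaction. The interaction of Rps19 was -0.46 (SE 0.17, unadjusted p = 0.00885 in the edgeR fit, adjusted p = 0.355). Rps3, a small-subunit protein at the mRNA entry, followed at -0.47 (SE 0.18, edgeR adjusted p = 0.371) and Rps24 at -0.48 (SE 0.20, edgeR adjusted p = 0.404). Without the 3-month male of run 31, 2 members passed, Rps3 and Rps19. The summed B cell markers (8 of 8 with a peak) were 65.6 to 68.3 CPM in the 18-month males, 95.8 to 96.8 CPM in the 18-month females and 78.2 to 96.0 CPM at 3 months, and their part in the difference between the sexes was not tested.

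**Figure D4:**
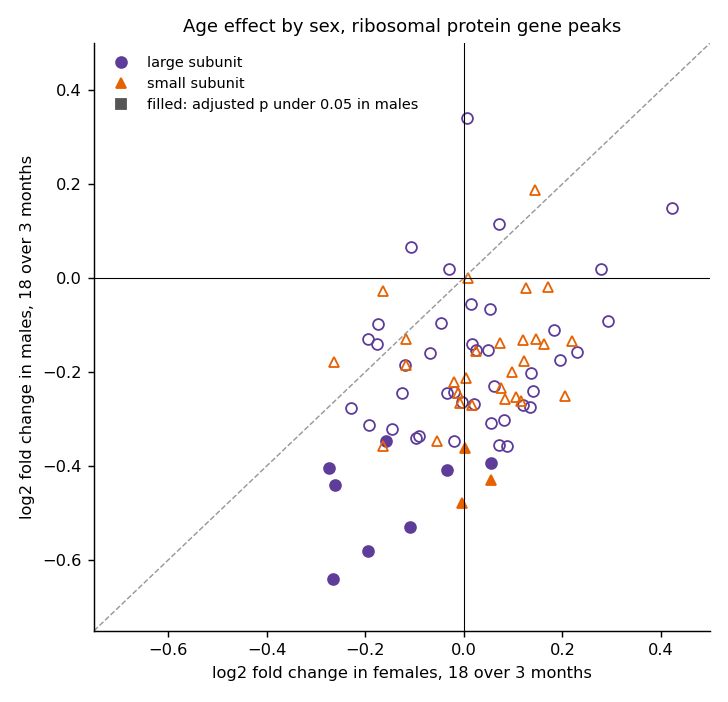
Log2 fold change (18 over 3 months) in females (x axis) and males (y axis) for each of the 80 member peaks, circles for large-subunit and triangles for small-subunit genes, filled where the adjusted p in males was under 0.05, with a dashed line of equal change. Most points lie below the dashed line (70 of 80) and below 0 in males (73 of 80), 0 members pass the interaction test, and with offsets smoothed on abundance both medians lie above 0.

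Between the sexes, with age as covariate, 0 of 76 autosomal and 0 of 4 X-linked members passed an edgeR adjusted p of 0.05; 9 and 1 had an unadjusted p under 0.05, against 6.84% of autosomal and 46.9% of X-linked peaks, and DESeq2 called 0. These 10 members became 4 or 5 without any 1 of females 35 and 36, males 38 and 39 and the 3-month male of run 31, and 5 with offsets smoothed on abundance. They became 16 without the 3-month female of run 31 and 31 without the 3-month male of run 30. Over all tested peaks 0.00813% of autosomal and 7.86% of X-linked peaks passed. The X-linked members are Rpl39, Rpl10, Rpl36a and Rps4x. Rps4x, whose human counterpart escapes X inactivation, had the smallest p, with 14.4 ± 2.54 CPM in females and 9.27 ± 0.99 CPM in males at 18 months, and 14.5 ± 1.76 CPM in females and 11.1 ± 2.35 CPM in males at 3 months (SD, n = 3 each). The log2 difference, males over females, was -0.51 (SE 0.13, edgeR adjusted p = 0.102). Without the 3-month male of run 30, 2 members passed, Rps4x and Rpl5, both lower in males. With age, Rpl10 stood at 0.04 (SE 0.10), Rpl36a at -0.12 (SE 0.11) and Rps4x at -0.12 (SE 0.13), none of which passed with TMM factors; Rpl10 stood at 0.23 and was called higher with offsets smoothed on abundance.

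At 30 of the members a second or further peak lay within 1 kb of a gene end, 31 peaks in all, with a median of 7.87 CPM. Of these, 0 were higher and 1 was lower at 18 months, beside the Rps15a gene, from 14.2 ± 1.46 CPM in younger to 11.0 ± 1.96 CPM in older mice (SD, n = 6 each; log2 fold change -0.37, SE 0.13, edgeR adjusted p = 0.0278). In the same fit 11.6% of all tested peaks were lower and 9.43% higher, so a single lower call among 31 peaks does not stand out. The peak of Rps15a chosen by the rule stood at -0.10. The median over the 31 peaks was 0.01, against -0.08 for the chosen peaks of the same genes.

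The 10 members without a peak by the rule were Rpl3, Rps27l, Rpl10l, Rpl39l, Rpl32l, Rpl34-ps1, Rpl31-ps12, Rpl37rt, Rps27rt and Rps23rg1. Rpl3 has a peak over an end of the gene, and Rps27l one over annotated starts inside the gene, whose centre falls outside 1 kb of either end. That of Rps27l, a relative of Rps27 known as a p53 target, measured 54.3 ± 5.59 CPM in younger and 42.8 ± 6.21 CPM in older mice (SD, n = 6 each), a fall of 0.35 on the log2 scale (SE 0.09, edgeR adjusted p = 0.00582). That of Rpl3, a protein near the peptidyl transferase centre, stood at -0.03 (SE 0.09, edgeR adjusted p = 0.857). Rpl3l, the relative of Rpl3 used in heart and skeletal muscle, was represented by a peak that also holds the end of Msrb1 and no annotated start of Rpl3l. The peak over the first start of Rpl3l averaged 10.3 CPM and stood at -0.04 (SE 0.13, edgeR adjusted p = 0.883), and the peak over a second start inside the gene averaged 16.8 CPM and stood at 0.22 (SE 0.11, edgeR adjusted p = 0.160). The other relatives, Rpl22l1 and Rpl7l1, stood at -0.11 and -0.12 and were not called.

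Genes that make or use ribosomes were counted in the same fit, where 11.6% of all peaks were lower and 9.43% higher, and 25.9% of gene peaks were lower and 3.76% higher. Of 74 genes listed by symbol alone as mitochondrial ribosomal proteins, 19 were lower and 1 higher, with a median of -0.14. Mrps36 was the lowest of them by adjusted p, at -0.62 (SE 0.09, edgeR adjusted p = 1.68e-06). Of 54 genes of ribosome assembly and RNA polymerase I, 10 were lower, among them Dkc1 of the pseudouridylation complex (-0.46), and 1, Taf1b, was higher (0.52). Of 32 translation initiation factors, 12 were lower and 0 higher, led by the Eif3 subunits Eif3i (-0.54), Eif3a (-0.40) and Eif3m (-0.41). Of 10 elongation factors and other TOP genes, 5 were lower, including Nap1l1 (-0.40) and Tpt1 (-0.33), and 1, Vim, was higher (0.37). Of 14 regulators of ribosomal protein genes, 3 were lower: the transcription factor Yy1 (-0.53), the S6 kinase gene Rps6kb1 (-0.32) and the translation repressor gene Eif4ebp2 (-0.29). Over the 186 peaks of these and a short further list, 50 were lower and 3 higher; with offsets smoothed on abundance 17 were lower and 9 higher.

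**Figure D5:**
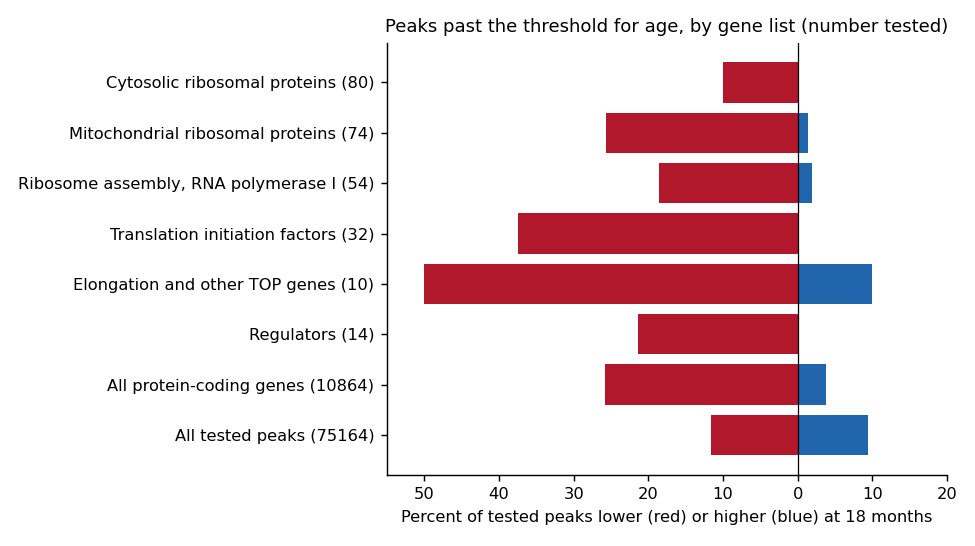
Percent of tested peaks called lower (red, left of 0) or higher (blue, right of 0) at 18 months for each gene list, with the number of peaks tested in parentheses and TMM scaling. The bar of the cytosolic ribosomal protein genes (10.0% lower) is close to that of all tested peaks (11.6%) and shorter than those of the mitochondrial ribosomal proteins (25.7%) and all protein-coding genes (25.9%); with offsets smoothed on abundance the ribosomal protein genes had 11 higher and 2 lower calls. Differences between lists were not tested.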

How the data were processed

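The authors deposited a table of counts, reads per consensus peak in 12 libraries, with no normalization (smallest value 1, held by 985 values). Per the submitters' processing notes, mm10, Trimmomatic, BWA, MACS2, DiffBind and edgeR were used; their versions, settings, duplicate removal and shift of read ends are not given in the sources used here. A floor of 1 compresses fold changes of the weakest peaks, and duplicates left in would understate counting error. The start of 1 peak is in scientific notation and has lost digits.

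Groups and mouse numbers came from the labels, 1 mouse per library. Total counts in peaks of 7668099 to 12756647 set the precision. Of 75281 peaks, the 75164 whose CPM, here of the unadjusted library total, exceeded 1 in 2 or more libraries were tested. The test was the quasi-likelihood F test of edgeR 4.0.16 in R 4.3.3, with TMM factors and age plus sex. Effects within a sex and the interaction came from a model with 4 group means. P-values were adjusted by Benjamini-Hochberg over all tested peaks, with 0.05 as threshold. Printed CPM are TMM-scaled, SE is the log2 fold change divided by the root of F, and intervals are at 95%. Scripts were tested on simulated data. Alternatives were total counts, DESeq2 size factors, offsets smoothed on abundance or width, no filter, DESeq2 1.42.0, other peak choices, and each library left out.

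Genes were placed with RefSeq GRCm38.p6, whose gene table has no strand; starts came from the promoter table, which matched 61 of the 80 members. Members and lists were chosen with earlier results of these data known. Genes were named by rule: the 8 called members with the smallest adjusted p, the 4 highest and lowest levels per kb, the stalk genes and Rpsa, Diamond-Blackfan genes, X-linked members, relatives, the 3 smallest interaction p, members without a peak, and the 3 leading genes of each other list. Others (Rpl38, Rpl17, Rps28, Rpl12, Rpl41, Rpl32, Rps14, Rps6, Rps18, Rps2, and the members called in males or under another scaling) were named after their values were seen. Some results are not reported here. NK cell markers (2 of 6 with a peak) gave 0 age calls over both sexes, as did stem and progenitor (4 of 8), megakaryocyte (3 of 5) and B cell (8 of 8) markers, although within a sex 3 B cell markers were lower in males, 1 was higher in females and 1 megakaryocyte marker was higher in males; of the T cell markers with a peak, 1 was higher.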

Additional observations from a re-analysis of the deposited data

Results flagged for a closer look

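In 2 of 86 groups of 6 libraries tested, 1 library lay far from the other 5; chance flags about 1 group in 20. Rpl11 at 18 months measured 50.9 CPM in female 35, against 44.9 to 47.0 CPM in the other 5 libraries. Rpl3l at 3 months measured 90.8 CPM in the male of run 30, against 59.3 to 66.8 CPM in the others. That male also had the highest summed granulocyte and monocyte markers of the 3-month libraries, 369 CPM, and its part in the Rpl3l value was not tested.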

How the results depend on the processing

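The ages could not be paired, since no mouse number was shared between groups and no run held both ages. For sex, runs 29 and 31 each held a 3-month female and a 3-month male, and a sex contrast within those runs was not made. With total counts, 2 members were higher and 4 lower with age, 1 was higher in females and 5 were lower in males; over all peaks 11196 were higher (7089 with TMM factors) and 7 peaks of other lists were higher. With offsets smoothed on abundance, 11 members were higher and 2 lower, their median log2 fold change was 0.068, 7 were higher in females, and 5 were higher and 2 lower in males; in the other lists 9 were higher and 17 lower. Rpl13a (0.19), Rps19 (0.22) and Rpl41 (0.26) turned from below to above 0 and passed the threshold. With offsets smoothed on width, 9 members were higher and 2 lower, with a median of 0.056, 6 were higher in females, and 4 were higher and 3 lower in males; in the other lists 16 were lower. The cause of these shifts was not tested. Fits on 1 sex alone gave 1 higher member in females and 5 lower in males. Shares of all peaks within a sex are not given here for these fits, total counts, width offsets or left-out libraries. With 1 library left out, all-peak counts ran from 5015 to 9032 higher and 7212 to 9713 lower; members were 4 to 13 lower and 0 to 0 higher with age, with medians from -0.13 to -0.067, and 3 to 28 were lower in males, 0 to 0 higher in males, and 0 to 0 higher or lower in females. The interaction gave 0 to 2 members and sex 0 to 2; the other lists gave 34 to 60 lower and 3 to 5 higher. Choosing the peak within 3 kb gave 10 of 84 members lower, near the start only 6 of 57, under 3 kb wide 7 of 65, summed peaks 7 of 80 and no sex covariate 6 of 80. Of choices added after seeing the data, the peak over an annotated start gave 9 of 81 and peaks without the end of another gene 6 of 58, and 0 members were higher under each. The libraries hold 7668099 to 12756647 counts, and the median SE of a member was 0.097 on the log2 scale, which limits the change that could be detected.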

Other observations

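The peaks of the 80 members together held 0.390% ± 0.0262 of the counts at 18 months and 0.395% ± 0.0108 at 3 months (SD, n = 6 each). The median log2 CPM of the members was 5.59 ± 0.13 in 18-month females, 5.41 ± 0.03 in 18-month males, 5.53 ± 0.07 in 3-month females and 5.58 ± 0.11 in 3-month males (SD, n = 3 each), given as a description. Beside the chosen peak of Rpl23a lies a wider peak over the other end of the gene, of 6882 bp, which measured 148 ± 9.83 CPM in younger and 105 ± 4.96 CPM in older mice (SD, n = 6 each). It fell by 0.50 on the log2 scale (SE 0.08, edgeR adjusted p = 1.27e-05), more than any chosen member peak. The peaks over the starts of Rpl19 (-0.20, SE 0.09, edgeR adjusted p = 0.102), Rpl22 (-0.12, SE 0.10, edgeR adjusted p = 0.396) and Rpl38 (0.06, SE 0.09, edgeR adjusted p = 0.725), which the rule passed over, did not pass the threshold.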
